A study of Arabidopsis thaliana with 4 samples.

Results

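IGN5 is an intergenic locus of Arabidopsis thaliana that gives rise to a pair of noncoding transcripts, IGN5b and IGN5t, which run apart on opposite strands of chromosome 4. Both transcripts were taken by their locus name in the deposited tables, and they are 2 of the 7 transcripts that the study read. The rrp6L1-1 library held 17850 IGN5b reads and 12888 IGN5t reads, and the rrp6L1-2 library 11627 and 6999. The nrpe1-11 library held 4 and 0, and the Col-0 library 22079 and 8539.

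RNA polymerase V (Pol V) is a plant polymerase that makes noncoding RNA at silent regions of the genome. In RNA-directed DNA methylation, these transcripts act as scaffolds: ARGONAUTE4 with its small RNAs pairs with them, and the methyltransferase DRM2 is recruited to the site. IGN5 is among the loci at which Pol V transcripts were first detected, and it serves as a standard locus for this pathway. RRP6L1 is a plant relative of RRP6, a nuclear 3′-to-5′ exonuclease that works with the RNA exosome in yeast.

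The rrp6L1-1 and rrp6L1-2 plants carried independent mutant alleles of RRP6L1. The nrpe1-11 plants carried a mutation in the largest subunit of Pol V, and Col-0 was the wild type. All 4 genotypes were in the Col-0 ecotype, and above-ground tissue was collected at 2.5 weeks from plants grown on soil with 16 hours of light and 8 hours of dark. Each genotype was 1 library, and the number of plants behind it is not given in the labels. There is therefore no replicate error, no p-value was computed, and the difference between the 2 rrp6L1 alleles is all that shows how far libraries can differ. The assay was 3′ RACE, which reads where an RNA ends, so it holds no tissue markers and no level of the RRP6L1 RNA. The reads came through nested PCR without molecular identifiers, so every interval or limit given here covers the error of counting alone.

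The length of a transcript is the deposited distance of its 3′ end from a fixed position at the locus, counted as length 1. For IGN5b that position was 2323304 and lengths grew along the plus strand. For IGN5t it was 2323136 and lengths grew along the minus strand. The strand column of the tables names the opposite strand in each case. The fixed positions differ between the transcripts, so a length of IGN5b cannot be set against a length of IGN5t as the size of an RNA. Between the fixed positions lay 167 bases. The outermost ends were at 2323495 for IGN5b and 2322945 for IGN5t, each at a length of 192 nt. The span overlapped 0 annotated genes in TAIR10.1. Beyond IGN5t the nearest gene was the lncRNA gene AT4G04905, 635 nt away. Beyond IGN5b it was APR1 (AT4G04610), an enzyme of sulfate assimilation, 1383 nt away.

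The reference sequence of lengths 1 to 110 is shown because the bases around the ends bear on how an end can be read. Capitals mark the 14 end positions of IGN5b and the 10 of IGN5t that held at least 5% of the ends of their transcript in at least 1 of rrp6L1-1, rrp6L1-2 and Col-0, called the most used positions below. IGN5b is chr4:2323304-2323413 on the plus strand and IGN5t is chr4:2323027-2323136 on the minus strand, both read 5′ to 3′ from TAIR10.1.
IGN5b: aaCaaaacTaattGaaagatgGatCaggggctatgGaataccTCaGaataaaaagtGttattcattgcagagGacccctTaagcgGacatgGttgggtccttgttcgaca
IGN5t: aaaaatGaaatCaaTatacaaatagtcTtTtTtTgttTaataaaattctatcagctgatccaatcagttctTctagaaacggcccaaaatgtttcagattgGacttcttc
The sequences differ in composition. G and C made up 41.8% of the IGN5b stretch and 29.1% of the IGN5t stretch. Each held 19 cytosines, of which 14 were in CHH context (H is any base but G), the context that RNA-directed methylation is best known for. IGN5b had 2 cytosines in CG and 3 in CHG context, and IGN5t had 1 and 4.

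The start of IGN5b was present a second time within the gap between the transcripts. A stretch of 39 bases, covering the 13 bases before length 1 and lengths 1 to 26, matched chr4:2323178-2323216 on the same strand at 37 of 39 bases, 113 nt upstream. Both stretches are shown with the 2 differing bases in capitals.
IGN5b start: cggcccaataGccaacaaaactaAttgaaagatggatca
upstream copy: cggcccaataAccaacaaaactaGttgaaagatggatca
The upstream copy lies between the 2 fixed positions, from which lengths are counted outward. No deposited end could therefore fall within it, and the 0 reads ending there do not show whether it is used. Ends within the repeated part of IGN5b, at lengths 1 to 26, made up 20.9% in rrp6L1-1, 12.3% in rrp6L1-2 and 39.4% in Col-0. No stretch of IGN5t had a match of this length within 1500 nt of the start of IGN5b. Its best matches there were 15 of 17 bases and 14 of 15 bases.

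Both transcripts were nearly absent from the library without Pol V. IGN5b gave 4 of 248940 reads in nrpe1-11, 0.00161% of the library (exact 95% interval 0.000438% to 0.00411%), against 15.6% in Col-0 (15.4% to 15.8%). IGN5t gave 0 reads in nrpe1-11, against 6.04% in Col-0 (5.91% to 6.16%). Here and below, what a count of 0 allows is set at 3 reads. For IGN5t in nrpe1-11 that is 0.00121%, somewhat under the 0.00148% that the exact 95% interval reaches. The PCR products of a genotype were pooled before sequencing, so these shares do not measure the amount of RNA.

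The 4 nrpe1-11 reads ended at 41, 43, 80 and 92 nt, and at most of these lengths the rrp6L1 libraries held more ends than Col-0. At 41 nt (position 2323344) there were 7 ends in rrp6L1-1, 6 in rrp6L1-2 and 0 in Col-0. At 43 nt (2323346) there were 203, 792 and 1. At 80 nt (2323383) there were 3909, 22 and 7. At 92 nt (2323395) there were 0 ends in rrp6L1-1, 2890 in rrp6L1-2 and 1487 in Col-0. A single read per position gives no profile, and nrpe1-11 is not used further.

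IGN5b gave more reads than IGN5t in every library that held both, by a margin that varied. The ratio of IGN5b to IGN5t reads was 1.39 in rrp6L1-1, 1.66 in rrp6L1-2 and 2.59 in Col-0. Pooling and PCR set this ratio as well as RNA, and their part was not tested.

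The ends of IGN5b fell on few positions, and the positions used were largely different in the rrp6L1 libraries and in Col-0. In Col-0 the 3 leading positions, at 36, 25 and 73 nt, held 64.4% of the ends. In rrp6L1-1 the same positions summed to 0.807%, and in rrp6L1-2 to 17.4%. The leading positions of rrp6L1-1, at 44, 80 and 86 nt, held 61.1% of its own ends, 22.2% of those of rrp6L1-2 and 0.851% of those of Col-0. In rrp6L1-2 they were 92, 44 and 36 nt, with 62.7% of its own ends, 26.7% of those of rrp6L1-1 and 41.1% of those of Col-0. Each library thus had its own trio, and the trio of rrp6L1-2 shared 44 nt with rrp6L1-1 and 36 nt with Col-0.

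**Figure D1:**
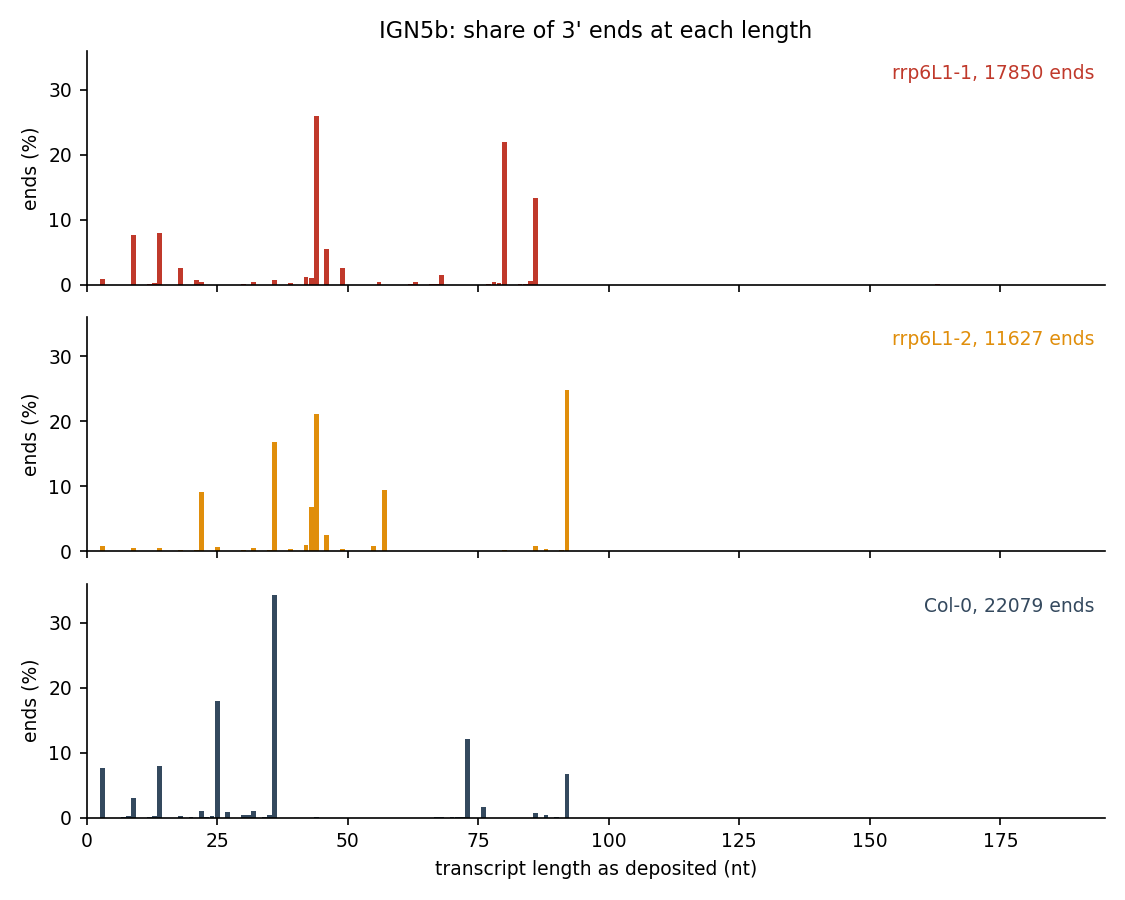
Share of IGN5b 3′ ends (percent of the ends of the transcript in the library, vertical axis) at each deposited length (nt, horizontal axis) in rrp6L1-1, rrp6L1-2 and Col-0, from top to bottom, 1 library each. The bar at 44 nt stands at 25.9% in rrp6L1-1 and 21.1% in rrp6L1-2 and is not visible in Col-0 (0.0634%), where the tallest bar is at 36 nt (34.3%).

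Of the 14 most used positions of IGN5b, 4 were higher in both mutants than in Col-0 by 4 times or more, a position with fewer than 3 ends being set to 3 ends. These were 43, 44, 46 and 80 nt, whose summed share was 54.5% in rrp6L1-1, 30.6% in rrp6L1-2 and 0.118% in Col-0. The cluster at 43 to 46 nt lies in the sequence printed above as ccTCaGaa. At 44 nt (position 2323347) lay 4625 ends in rrp6L1-1 (25.9%), 2454 in rrp6L1-2 (21.1%) and 14 in Col-0 (0.0634%), ratios to Col-0 of 409 and 333. Its neighbour at 43 nt held 1.14% in rrp6L1-1, 6.81% in rrp6L1-2 and a single Col-0 end (0.00453%). At 46 nt the shares were 5.54%, 2.49% and 0.0181%. The mutants were alike at 44 nt, where their shares differed by less than 1.5 times, and unlike at 80 nt. There, 21.9% of the rrp6L1-1 ends stood against 0.189% in rrp6L1-2 and 0.0317% in Col-0.

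The 3 positions that were lower in both mutants by 4 times or more were 3, 25 and 73 nt. Their summed share was 0.924% in rrp6L1-1, 1.52% in rrp6L1-2 and 37.8% in Col-0. At 25 nt (position 2323328) lay 1 end in rrp6L1-1 (0.00560%), 78 in rrp6L1-2 (0.671%) and 3976 in Col-0 (18.0%). At 73 nt (2323376) lay 8 ends in rrp6L1-1 (0.0448%), 0 in rrp6L1-2, which allows up to 0.0258%, and 2665 in Col-0 (12.1%). The short ends at 3 nt made up 0.874%, 0.851% and 7.73%. The 25 and 73 nt ends were thus under 1% in either mutant, and so were the 3 nt ends, though by a smaller margin.

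At the other 7 most used positions of IGN5b the alleles parted. The 9 and 14 nt ends were lower in rrp6L1-2 (0.559% and 0.447%) than in Col-0 (3.13% and 7.96%), whereas rrp6L1-1 held 7.67% and 7.94%. At 22 nt the rrp6L1-2 share of 9.07% stood above the 0.426% of rrp6L1-1 and the 1.12% of Col-0. At 57 nt lay 9.49% of the rrp6L1-2 ends, 5 ends of rrp6L1-1 (0.0280%) and 0 ends of Col-0, which allows up to 0.0136%. The 36 nt position, the leading position of Col-0, held 0.756% in rrp6L1-1, 16.7% in rrp6L1-2 and 34.3% in Col-0. At 86 nt the order was 13.3%, 0.877% and 0.756%. At 92 nt no rrp6L1-1 read ended (0 of 17850, which allows up to 0.0168%), while the position held 24.9% in rrp6L1-2 and 6.73% in Col-0.

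The long ends of IGN5b sat at 80 and 86 nt in rrp6L1-1, whereas rrp6L1-2 and Col-0 had a peak at 92 nt in common and Col-0 a further one at 73 nt. Ends beyond 60 nt made up 39.9% in rrp6L1-1, 27.0% in rrp6L1-2 and 22.7% in Col-0. Hardly any end lay beyond 100 nt, with 0.263%, 0.0344% and 0.0136%.

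IGN5t, on the opposite strand, kept more of its end positions. Its leading position was 12 nt (position 2323125) in every one of the 3 libraries, with 1980 ends in rrp6L1-1 (15.4%), 1310 in rrp6L1-2 (18.7%) and 2181 in Col-0 (25.5%). The positions at 7 and 15 nt were also used in all 3. The 7 nt shares were 4.66% in rrp6L1-1, 11.9% in rrp6L1-2 and 7.66% in Col-0. At 15 nt lay 4.43%, 3.79% and 6.73%. These 3 positions together held 24.5%, 34.4% and 39.9%, and each differed from Col-0 by less than 4 times in both mutants.

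**Figure D2:**
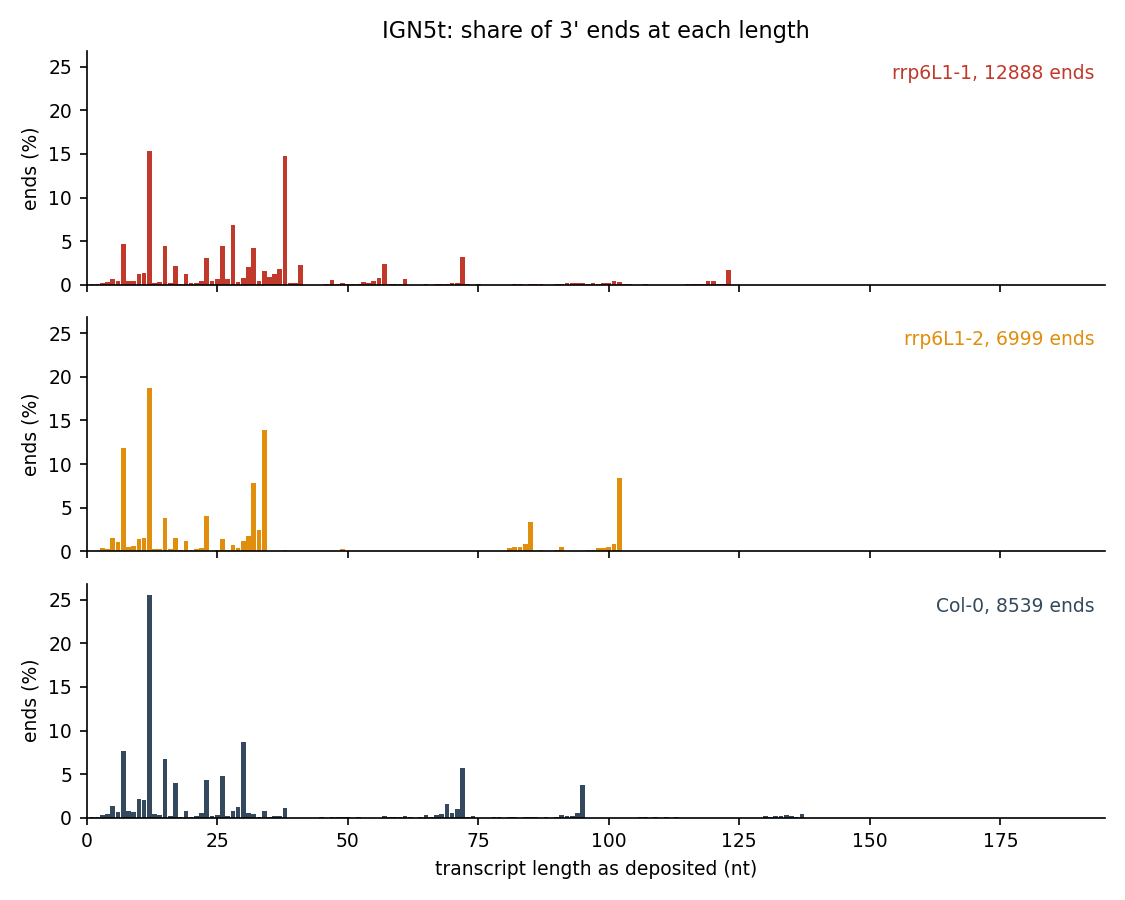
Share of IGN5t 3′ ends (percent of the ends of the transcript in the library, vertical axis) at each deposited length (nt, horizontal axis) in rrp6L1-1, rrp6L1-2 and Col-0, from top to bottom, 1 library each. The bar at 12 nt is the tallest in each (15.4%, 18.7% and 25.5%), and the second tallest is at 38 nt in rrp6L1-1, 34 nt in rrp6L1-2 and 30 nt in Col-0.

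Several of the most used positions at which IGN5t differed lay in or just beyond a run of 7 thymines at lengths 28 to 34 (chr4:2323103-2323109), printed above as tcTtTtTtTgttT. The share of the whole run was 16.4% in rrp6L1-1 (95% interval 15.7% to 17.0%), 28.3% in rrp6L1-2 (27.3% to 29.4%) and 12.8% in Col-0 (12.1% to 13.5%). Within it the leading position was 28 nt in rrp6L1-1, 34 nt in rrp6L1-2 and 30 nt in Col-0. At 28 nt the shares were 6.82% in rrp6L1-1, 0.786% in rrp6L1-2 and 0.750% in Col-0. At 34 nt they were 1.64%, 13.9% and 0.820%. The 30 nt position was the 1 most used position of IGN5t that was lower in both mutants by 4 times or more, at 0.753% and 1.24% against 8.72% in Col-0. The 32 nt position was higher in both, at 4.21% and 7.87% against 0.492%. Just beyond the run, at 38 nt (position 2323099), rrp6L1-1 held 14.8%, rrp6L1-2 0.129% and Col-0 1.16%.

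Farther from its start, IGN5t ended at positions that depended on the library. Ends beyond 60 nt made up 12.1% in rrp6L1-1, 18.3% in rrp6L1-2 and 19.3% in Col-0, lower in rrp6L1-1 and near Col-0 in rrp6L1-2. The 72 nt position held 3.16% in rrp6L1-1, no end in rrp6L1-2 (0 of 6999, which allows up to 0.0429%) and 5.74% in Col-0. At 102 nt (position 2323035) lay 47 ends in rrp6L1-1 (0.365%), 585 in rrp6L1-2 (8.36%) and 2 in Col-0 (0.0234%). Among less used positions, 95 nt held 0.272% in rrp6L1-1, 0.0429% in rrp6L1-2 and 3.76% in Col-0. The 85 nt position held 0.0543%, 3.36% and 0.105%. Ends beyond 100 nt made up 4.59% in rrp6L1-1, 9.39% in rrp6L1-2 and 2.48% in Col-0. In rrp6L1-2 most of these were the ends at 102 nt. Ends up to 110 nt made up 96.6% in rrp6L1-1, 99.9% in rrp6L1-2 and 98.0% in Col-0. Beyond 110 nt the share was thus higher than in Col-0 in rrp6L1-1 and lower in rrp6L1-2.

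**Figure D3:**
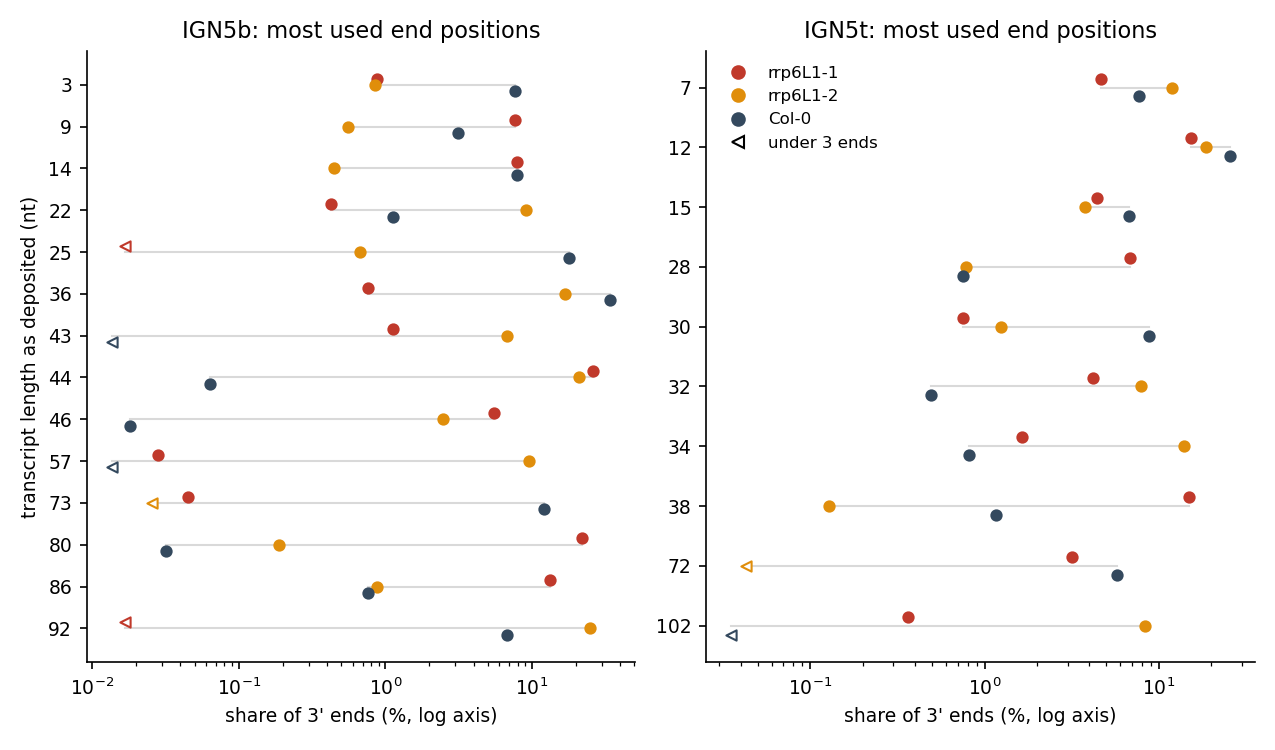
Share of 3′ ends (percent, log axis) at the 14 most used positions of IGN5b and the 10 of IGN5t (deposited length in nt, rows from short to long) in rrp6L1-1, rrp6L1-2 and Col-0. Open triangles stand at 3 ends for positions with fewer than 3, and the shares of a position spread over less than 4 times between each mutant and Col-0 at 3 rows of IGN5t (7, 12 and 15 nt) and at no row of IGN5b.

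The measure was then extended to every position that held at least 2% of the ends of its transcript in 1 or both of the libraries compared. At IGN5b, 11 of 13 such positions differed by 4 times or more between rrp6L1-1 and Col-0, 6 higher and 5 lower in the mutant. Over the 7 loci, 50.5% of the compared positions did so, 26.1% higher and 24.3% lower. For rrp6L1-2 against Col-0 it was 10 of 12, 5 higher and 5 lower, where the 7 loci gave 49.1%, 26.4% higher and 22.7% lower. At IGN5t the counts were 7 of 17 in rrp6L1-1, 5 higher and 2 lower, and 8 of 16 in rrp6L1-2, 5 higher and 3 lower. The IGN5t share is thus near that of the 7 loci, and the IGN5b share, at 84.6% and 83.3%, is above it. The loci differed widely, with 8 of 10 and 13 of 14 positions at IGN17, 11 of 15 and 9 of 15 at IGN25, and 1 of 12 and 1 of 15 at IGN29, so a high share is not particular to IGN5b. The median size of the log2 ratio to Col-0 was 7.62 in rrp6L1-1 and 4.45 in rrp6L1-2 at IGN5b, and 0.88 and 2.29 at IGN5t. Over the 7 loci it was 2.30 and 1.98, with counts under 3 set to 3 ends throughout. By locus it was 5.78 and 6.62 at IGN17, 4.81 and 4.85 at IGN25, and 0.33 and 0.58 at IGN29. The rrp6L1-2 value of IGN5b was thus below those of IGN17 and IGN25. Between the alleles the median was 4.15 at IGN5b, 2.34 at IGN5t and 2.04 over the 7 loci. It was 4.48 at IGN17, 5.81 at IGN25 and 0.36 at IGN29.

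The alleles differed from each other by as much as from Col-0 on this count. Between rrp6L1-1 and rrp6L1-2, 11 of 13 positions of IGN5b and 9 of 17 positions of IGN5t were 4 times apart or more, where the 7 loci gave 50.9%. Among the other loci the counts were 9 of 10 at IGN17, 13 of 16 at IGN25 and 0 of 15 at IGN29. At neither transcript did more positions differ between a mutant and Col-0 than between the libraries of the 2 mutants. Both mutants were compared with the same Col-0 library, so positions that moved the same way in both share that library.

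Whole profiles of IGN5b were compared by 2 measures, of which only the cumulative one set the alleles clearly closer to each other than to Col-0. Summing the smaller share at each position, the profiles had 16.2% in common for rrp6L1-1 and Col-0, 30.4% for rrp6L1-2 and Col-0, and 32.5% for the 2 alleles. The cumulative shares of each mutant and Col-0 were farthest apart at 36 nt, where they stood at 22.4% in rrp6L1-1, 30.2% in rrp6L1-2 and 77.1% in Col-0. Those of the alleles were farthest apart at 86 nt, with 99.7% in rrp6L1-1 and 74.4% in rrp6L1-2. By this gap the alleles were the closest pair. It was 0.547 and 0.469 for the mutants against Col-0 and 0.253 between the alleles. At the other 5 loci the gap ran from 0.0628 to 0.375 for rrp6L1-1 and Col-0, from 0.0869 to 0.510 for rrp6L1-2 and Col-0, and from 0.0423 to 0.817 for the alleles. The IGN5b gap of rrp6L1-1 was outside that range and that of rrp6L1-2 was inside it, and both were smaller than the widest gap between the alleles elsewhere.

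At IGN5t, the 3 pairs of libraries were about equally alike. The shares in common were 55.4% and 53.5% for rrp6L1-1 and rrp6L1-2 with Col-0 and 52.1% between the alleles. The largest cumulative gaps to Col-0 were 0.237 and 0.210, both at 30 nt, where rrp6L1-1 stood at 52.2%, rrp6L1-2 at 54.9% and Col-0 at 75.9%. Between the alleles the largest gap was 0.202, at 34 nt. These lay within the ranges of the other 5 loci.

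**Figure D4:**
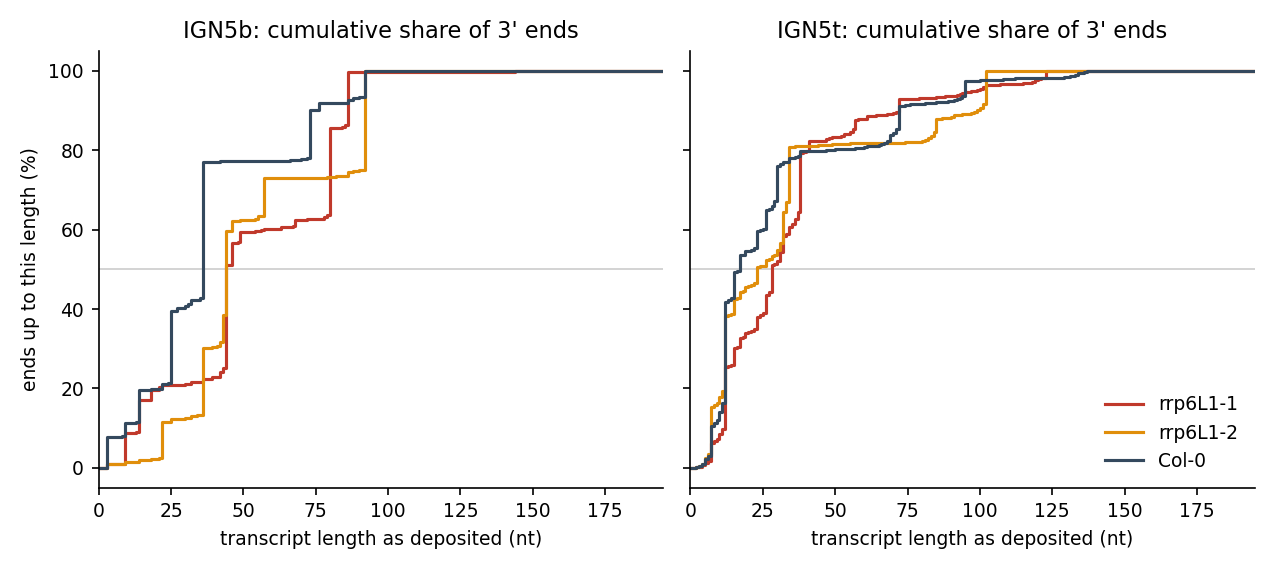
Cumulative share of 3′ ends (percent, vertical axis) up to each deposited length (nt, horizontal axis) at IGN5b (left) and IGN5t (right) in rrp6L1-1, rrp6L1-2 and Col-0, 1 library each, with a grey line at 50%. At 36 nt of IGN5b the mutant curves stand at 22.4% and 30.2% and the Col-0 curve at 77.1%, and at 30 nt of IGN5t the mutant curves stand at 52.2% and 54.9% and the Col-0 curve at 75.9%.

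Both transcripts had later medians in both mutants than in Col-0 when every end was counted, a direction that did not hold under each alternative. At IGN5b both mutants had a median of 44 nt and Col-0 one of 36 nt, with order-statistic intervals of zero width because each median fell on a large peak. The 25th percentiles were 43, 36 and 25 nt and the 75th 80, 91 and 36 nt. At the 10th percentile the lengths were 14 and 22 nt in the mutants and 9 nt in Col-0, and at the 90th 86 and 92 nt against 73 nt. At IGN5b, then, all 5 percentiles lay farther out in both mutants. Without the positions directly before a genomic A, the differences of the IGN5b medians from Col-0 were -49 nt in rrp6L1-1 and 0 nt in rrp6L1-2.

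At IGN5t the median was 28 nt in rrp6L1-1 (95% interval 28 to 28 nt), 23 nt in rrp6L1-2 (23 to 26 nt) and 17 nt in Col-0 (15 to 17 nt). The 10th percentile was 12 nt in rrp6L1-1, 7 nt in rrp6L1-2 and 7 nt in Col-0, and the 25th was 12 nt in all 3 libraries. The 75th was 38 and 34 nt in the mutants and 30 nt in Col-0. The 90th was 72 and 99 nt in the mutants, against 72 nt in Col-0. Ends up to 10 nt made up 8.57% in rrp6L1-1, 17.9% in rrp6L1-2 and 14.2% in Col-0. The alleles thus lay on either side of Col-0 at the short end of IGN5t and both beyond it at the median. With each position of 2 or more ends counted once, the differences of the IGN5t medians from Col-0 were 0 nt in rrp6L1-1 and -22 nt in rrp6L1-2.

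IGN5b ends were concentrated on fewer positions than IGN5t ends in each library. The effective number of positions (1 over the sum of squared shares) was 6.65 in rrp6L1-1, 6.36 in rrp6L1-2 and 5.46 in Col-0 at IGN5b. At IGN5t it was 15.5, 11.3 and 10.4. The number of positions needed to reach 90% of the ends was 10, 7 and 8 at IGN5b, and 38, 22 and 30 at IGN5t. At the other 5 loci the number needed for 90% ran from 5 to 24, and IGN5t in rrp6L1-1 and Col-0 lay above each of those in the same library. By the effective number it did not, since the other loci reached 18.6, 15.4 and 19.5. At a common depth of 6999 ends the expected number of positions was 73.9, 63.9 and 63.5 at IGN5b and 120.5, 91 and 123.2 at IGN5t.

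The spread of IGN5t ends included positions just before its most used positions. Positions that lay before one most used position and after another were counted on neither side. Ends 1 to 3 nt before one of its most used positions made up 10.1% in rrp6L1-1, 8.00% in rrp6L1-2 and 13.0% in Col-0. Ends 1 to 3 nt after one made up 6.22%, 2.67% and 5.46%, over the same number of positions (13 each). The ends before included 26 nt, with 4.47% in rrp6L1-1, 1.40% in rrp6L1-2 and 4.80% in Col-0. In Col-0 this was more than the 0.750% at 28 nt, the position it precedes. The ends after included 17 nt, with 2.19%, 1.49% and 4.04%. At IGN5b the shares before were 4.73%, 3.16% and 1.83% (27 positions) and those after 3.36%, 1.26% and 3.31% (28 positions). These windows were chosen after the profiles were seen.

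The genomic base at the end and the base after it differed between the transcripts too. At IGN5b the share of ends directly before a genomic A was 92.7% in rrp6L1-1, 54.8% in rrp6L1-2 and 87.3% in Col-0, with an A after 33.6% of the positions. At IGN5t it was 57.8%, 56.8% and 59.7%, with an A after 34.5% of the positions. Of the most used positions, 11 of 14 at IGN5b and 5 of 10 at IGN5t had an A next, and 0 of either were themselves an A. RNA was tailed with poly(A) before reverse transcription, so a genomic A next to the tail cannot be told apart from the tail. Ends on an A can thus be counted at the base before their run, and the share of positions before an A is no baseline for the ends. Positions that are not an A and have one next made up 20.0% at IGN5b and 17.3% at IGN5t, and positions that are an A 33.6% and 35.5%. How much of the share of ends before an A comes from the tailing was not tested. An end directly before an A run may lie farther downstream by up to the length of that run, which was at most 4 nt after a most used position of IGN5b and 3 nt after one of IGN5t.

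The low rrp6L1-2 share before an A at IGN5b went with its peaks at 92, 57 and 43 nt, none of which has an A next. The 20 bases around 5 leading ends show the contrast, with the end base in capitals.
IGN5b 36 nt: ggggctatgGaatacctcag
IGN5b 44 nt: ggaatacctCagaataaaaa
IGN5b 73 nt: attgcagagGaccccttaag
IGN5b 80 nt: aggacccctTaagcggacat
IGN5b 92 nt: gcggacatgGttgggtcctt
Of the 14 most used IGN5b positions, 5 ended in GG (22, 36, 73, 86 and 92 nt), as did 1 of 10 at IGN5t (102 nt). Ends after GG made up 14.7% in rrp6L1-1, 51.7% in rrp6L1-2 and 55.5% in Col-0 at IGN5b, where 9.09% of positions end in GG. At IGN5t they were 0.512%, 8.87% and 0.0820%, where 1.82% of positions do. All of these most used GG positions but 92 nt of IGN5b have an A next. Ends on an A can be counted at such positions, so the shares of positions are no baseline here either. At the other 5 loci ends after GG ran from 0.0350% to 20.0% in rrp6L1-1, from 0.00733% to 73.7% in rrp6L1-2 and from 0.217% to 15.4% in Col-0. The GG letters were noticed in the profiles and are a description.

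Ends placed on a genomic A were rare at IGN5b, with 0.644% in rrp6L1-1, 0.593% in rrp6L1-2 and 0.688% in Col-0. The tail can hide such ends, so a low share does not show that few RNAs ended on an A. At IGN5t they made up 8.04%, 8.34% and 9.17%. The other 5 loci ran from 0.498% to 1.29%, from 0.799% to 1.42% and from 0.310% to 1.19%, so IGN5t stood outside the range of every library. Why more IGN5t ends were placed on an A was not tested. The leading such positions were 10 and 5 nt. At 10 nt (position 2323127), the last of 3 A bases that follow the peak at 7 nt, the shares were 1.30%, 1.47% and 2.18%. At 5 nt (2323132) they were 0.667%, 1.56% and 1.34%, so 5 nt led in rrp6L1-2 and 10 nt in the other libraries.

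**Figure D5:**
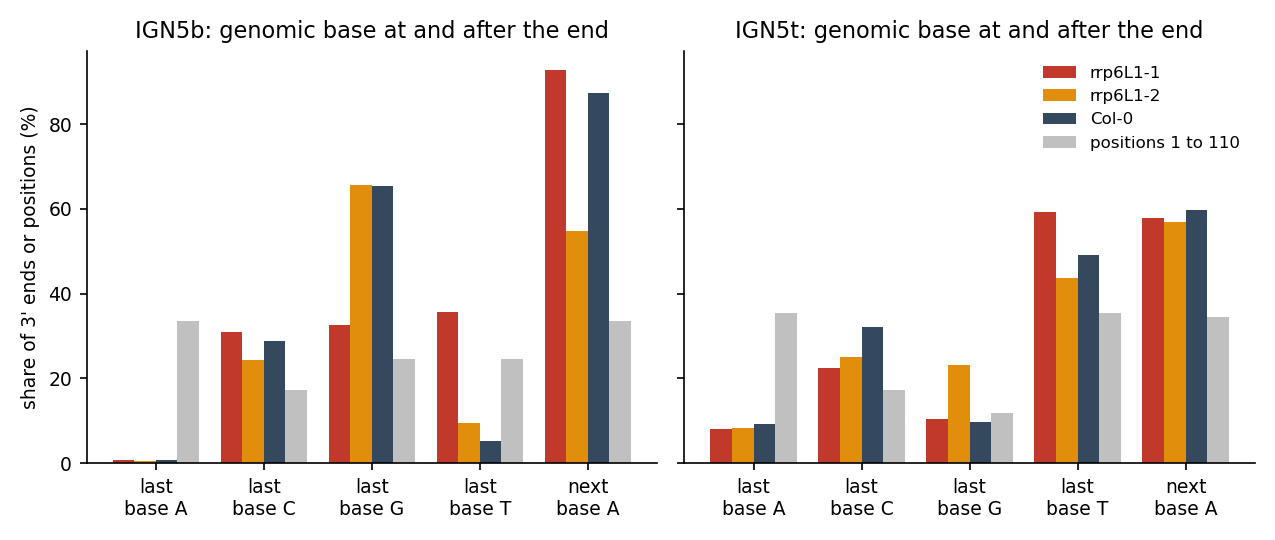
Share of 3′ ends (percent) by the genomic base at the end (A, C, G or T) and with an A as the next base, at IGN5b (left) and IGN5t (right) in rrp6L1-1, rrp6L1-2 and Col-0. Grey bars give the share of positions 1 to 110 with that base, which for a following A is 33.6% at IGN5b and 34.5% at IGN5t. They are no baseline for the A bars, since an end on an A can be counted at the base before its run.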

How the data were processed

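Per the labels' protocols, total RNA was tailed with poly(A) polymerase, reverse transcribed from oligo(dT), amplified by nested PCR with locus primers, pooled by genotype and sequenced as 1 library each. Tools listed in the submitters' processing notes are Bowtie2, bedtools, SAMtools, cutadapt 1.9.1 and bcl2fastq 2.16.0.10, and the build is TAIR10. What each tool did, and with which settings, is not given in the sources used here. The deposited tables hold 1 line per read with its locus, 3′ end coordinate, length in nt and a mapping quality score, which per the file headers and values ran from 41 to 44. Library depth was 109895 reads in rrp6L1-1, 89304 in rrp6L1-2, 248940 in nrpe1-11 and 141489 in Col-0, after dropping exact duplicate lines, none of which were at IGN5.

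Coordinates were read as 1-based and looked up in TAIR10.1, whose chromosome 4 sequence has 18585056 bases. Medians have order-statistic intervals and shares exact Clopper-Pearson intervals, both at 95%, and a share of 0 was given the limit of 3 reads. The search for near copies took the best ungapped match (1 per match, -2 per mismatch) on both strands within 1500 nt. A position was compared at a share of 2% or more, with a fold of 4; the most used positions held at least 5%. The position step was tested on simulated data. Computations used Python 3.11.15, numpy 2.4.6, pandas 2.3.3, scipy 1.17.1 and matplotlib 3.10.9. The transcripts, measures and alternatives were chosen with earlier results of these data known.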

Additional observations from a re-analysis of the deposited data

Results flagged for a closer look

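At 38 nt of IGN5t (position 2323099) the alleles stood on opposite sides of Col-0 by 4 times or more, with 14.8% of the ends in rrp6L1-1, 0.129% in rrp6L1-2 and 1.16% in Col-0. This was the 1 most used position of either transcript to do so, and with 1 library per genotype the difference was not tested.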

How the results depend on the processing

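Differences of a mutant from Col-0 in location are given for rrp6L1-1 and then rrp6L1-2, against main values of 8 and 8 nt at IGN5b and 11 and 6 nt at IGN5t. At IGN5b the mean gave 14.4 and 15.5 nt, the 75th percentile 44 and 55 nt, each position with 2 or more ends counted once 15 and 6 nt, and leaving out the leading position of each library 53 and 18 nt. Without positions before a genomic A, IGN5b turned to -49 nt in rrp6L1-1 and gave 0 nt in rrp6L1-2, the medians then being 43 nt in rrp6L1-1, 92 nt in rrp6L1-2 and 92 nt in Col-0. With ends moved to the last base of the A run that follows, an alternative chosen after seeing the data, IGN5b gave 7 and 7 nt and IGN5t 10 and 6 nt. At IGN5t the mean gave 3.62 and 3.17 nt, the 75th percentile 8 and 4 nt, and positions before A left out 1 and 3 nt. Each position counted once gave 0 and -22 nt, a reversal in rrp6L1-2, and without the leading position it was 6 nt in rrp6L1-1. Lines as deposited and reads of the highest mapping quality left these differences as they were or, at IGN5t, within their intervals (13 and 8 nt with the highest mapping quality). With a minimum share of 5%, the IGN5t positions past 4-fold numbered 3 for rrp6L1-1 against Col-0, 5 for rrp6L1-2 against Col-0 and 4 between the alleles, fewer positions being compared. The other 15 of 18 counts under the alternatives stayed within 1.5 times. In windows of 5 nt the ends in common rose to 20.0%, 39.2% and 39.3% at IGN5b and to 64.0%, 56.1% and 56.3% at IGN5t (rrp6L1-1 with Col-0, rrp6L1-2 with Col-0, the alleles), since wider windows merge neighbours. The cause of the other changes was not tested. No paired analysis was possible because each genotype has 1 library. With 6999 to 22079 ends per profile, counting error is small beside the unknown spread between libraries, and 4 reads of nrpe1-11 allow no profile.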
